A study of Mus musculus with 24 samples.

Results

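The pluripotency network genes described here were 39 genes of the naive and primed states of mouse embryonic stem cells (ESCs), and 27 of them had at least 1 differentially 5-hydroxymethylated window. A window belonged to a gene if it overlapped the gene span (GENCODE vM21, mouse genome GRCm38), lay within 20 kb of it, or was listed with the gene's Ensembl identifier. By this rule the 39 genes held 177 of the 20726 windows in the lists. The data compared 2 clonal ESC lines of mixed C57BL/6J-129V background that lacked endogenous *Tet1*, *Tet2* and *Tet3*, were grown in 2i medium with leukemia inhibitory factor (LIF), and carried a lentivirus for Flag-tagged human Tet3. Wt25 expressed wild-type Tet3, and AA10 expressed phosphor-mutant Tet3 with alanine in place of both serines that the kinase cdk5 phosphorylates. Each line was a single puromycin-selected clone, so the form of Tet3 and the clone cannot be told apart. 5-hydroxymethylcytosine (5hmC) was measured by DNA immunoprecipitation and sequencing (5hmC-DIP-seq) in 3 libraries per line, and the lists hold bins of 200 bp in which the read counts of the lines differed, 12096 with higher 5hmC in Wt25 and 8630 with higher 5hmC in AA10. The lists pool the libraries and give a position and a gene without counts, fold changes or P-values, so each statement below is about the presence and direction of a window. The lists do not give the depth or replicate error behind a window, and no test between the lines was possible. Expression is not part of these lists, and the ESC label was not checked against marker genes.

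Pluripotency rests on a small circuit of transcription factors. Oct4 (the product of *Pou5f1*), Sox2 and Nanog bind each other's enhancers, and Esrrb, the Klf factors, Tfcp2l1, Tbx3, Prdm14 and Nr5a2 hold cells in the naive state that 2i and LIF maintain. LIF acts through the receptor subunits Lifr and Il6st and the transcription factor Stat3, whereas *Otx2*, *Fgf5* and *Zic2* mark the shift to the primed state and Tcf7l1 represses the naive genes. Tet enzymes oxidise 5-methylcytosine to 5hmC, a mark that in ESCs is found at enhancers, in gene bodies and around promoters of low activity.

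The windows below were chosen because they lay closest to a member's transcription start site, held the most CpGs of their direction (1 window per member, outside UTRs), or belonged to *Pou5f1*, the member with 1 window in each direction. They are plus-strand reference sequences of GRCm38, listed with 198 of the 200 bp of each bin, with CpG dinucleotides, the main targets of methylation and hydroxymethylation, in capitals. Start sites here and below are those of GENCODE basic transcripts, and the start of a gene span, which can come from another transcript, is named as such. Windows with higher 5hmC in Wt25 are given first.
Lin28a, higher in Wt25, chr4:134018203-134018400: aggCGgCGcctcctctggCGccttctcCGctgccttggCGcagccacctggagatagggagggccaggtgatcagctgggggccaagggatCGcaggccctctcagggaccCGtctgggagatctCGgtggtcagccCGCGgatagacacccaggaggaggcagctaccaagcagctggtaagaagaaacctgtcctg
Dppa2, higher in Wt25, chr16:48311003-48311200: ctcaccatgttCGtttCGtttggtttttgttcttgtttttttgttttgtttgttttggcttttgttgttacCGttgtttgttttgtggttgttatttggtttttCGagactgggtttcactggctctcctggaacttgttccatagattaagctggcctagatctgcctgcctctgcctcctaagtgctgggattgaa
Dppa4, higher in Wt25, chr16:48284803-48285000: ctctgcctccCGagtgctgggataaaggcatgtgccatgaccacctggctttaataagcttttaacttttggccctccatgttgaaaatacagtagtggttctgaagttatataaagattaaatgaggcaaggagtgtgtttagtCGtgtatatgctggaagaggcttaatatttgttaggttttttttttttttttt
Klf4, higher in Wt25, chr4:55534003-55534200: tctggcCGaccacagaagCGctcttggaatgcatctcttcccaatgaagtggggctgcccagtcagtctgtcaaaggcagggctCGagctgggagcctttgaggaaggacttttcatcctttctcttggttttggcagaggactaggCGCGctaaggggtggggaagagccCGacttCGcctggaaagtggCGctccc
Sall4, higher in Wt25, chr2:168743203-168743400: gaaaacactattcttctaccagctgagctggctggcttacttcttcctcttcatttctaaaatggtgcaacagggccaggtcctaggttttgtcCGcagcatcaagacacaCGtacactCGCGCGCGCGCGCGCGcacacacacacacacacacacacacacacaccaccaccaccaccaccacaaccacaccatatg
Pou5f1, higher in Wt25, chr17:35514603-35514800: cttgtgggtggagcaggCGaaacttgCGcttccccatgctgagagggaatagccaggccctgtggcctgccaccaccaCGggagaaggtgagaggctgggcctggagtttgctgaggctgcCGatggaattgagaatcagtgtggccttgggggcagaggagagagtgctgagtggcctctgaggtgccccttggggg
Lefty1, higher in AA10, chr1:180933203-180933400: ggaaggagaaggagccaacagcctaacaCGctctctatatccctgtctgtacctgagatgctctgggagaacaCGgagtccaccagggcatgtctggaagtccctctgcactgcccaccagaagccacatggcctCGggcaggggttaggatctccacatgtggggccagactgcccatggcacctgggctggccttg
Nanog, higher in AA10, chr6:122705203-122705400: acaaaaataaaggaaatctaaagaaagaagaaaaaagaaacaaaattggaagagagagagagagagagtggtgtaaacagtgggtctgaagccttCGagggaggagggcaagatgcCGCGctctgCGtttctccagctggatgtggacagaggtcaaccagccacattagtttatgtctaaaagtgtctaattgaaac
Lefty2, higher in AA10, chr1:180890203-180890400: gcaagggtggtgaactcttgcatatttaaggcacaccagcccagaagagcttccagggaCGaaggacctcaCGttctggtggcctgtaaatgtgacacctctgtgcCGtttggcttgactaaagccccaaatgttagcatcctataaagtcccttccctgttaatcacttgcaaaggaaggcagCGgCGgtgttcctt
Tcf7l1, higher in AA10, chr6:72656403-72656600: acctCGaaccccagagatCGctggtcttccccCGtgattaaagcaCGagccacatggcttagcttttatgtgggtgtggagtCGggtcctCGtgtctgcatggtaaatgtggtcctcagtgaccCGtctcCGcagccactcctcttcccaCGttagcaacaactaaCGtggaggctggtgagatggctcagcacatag
Zic2, higher in AA10, chr14:122482203-122482400: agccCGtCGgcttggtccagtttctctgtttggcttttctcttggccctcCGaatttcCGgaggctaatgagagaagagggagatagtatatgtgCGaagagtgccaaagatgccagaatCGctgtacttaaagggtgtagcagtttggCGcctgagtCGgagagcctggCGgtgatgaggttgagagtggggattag
Nanog, higher in AA10, chr6:122670403-122670600: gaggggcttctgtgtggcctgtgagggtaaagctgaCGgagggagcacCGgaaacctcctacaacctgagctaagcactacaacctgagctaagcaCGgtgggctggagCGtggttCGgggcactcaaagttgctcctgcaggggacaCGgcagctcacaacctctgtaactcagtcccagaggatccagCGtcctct
Pou5f1, higher in AA10, chr17:35511803-35512000: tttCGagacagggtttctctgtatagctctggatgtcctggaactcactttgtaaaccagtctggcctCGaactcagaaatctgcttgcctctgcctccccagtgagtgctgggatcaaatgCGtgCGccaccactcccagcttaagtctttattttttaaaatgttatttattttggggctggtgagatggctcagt
The *Lin28a* and *Sall4* windows held 10 CpGs each, but in the *Lin28a* window they were spread over the sequence and in the *Sall4* window most stood in 1 alternating CG stretch beside a CA stretch. The *Dppa4* window held 2 CpGs. The *Tcf7l1* window with 10 CpGs and the *Zic2* window with 9 were the richest with higher 5hmC in AA10.

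Windows were found at 27 of 39 members (69.2%), against 44.1% of the 21951 protein-coding genes under the same rule. Inside the gene span alone, without flanks or listed genes, 11 members (28.2%) held a window, against 21.3% of protein-coding genes. Windows with higher 5hmC in Wt25 were found at 18 members (46.2%, against 29.3% of protein-coding genes), and windows with higher 5hmC in AA10 at 15 members (38.5%, against 21.8%). Of the 27, 12 had Wt25 windows only, 9 had AA10 windows only and 6 had both. The median was 2 windows per member and 0 per protein-coding gene, and the means were 4.69 and 1.32. At least 10 windows were found at 6 members (15.4%) and at 1.76% of protein-coding genes. The median gene span was 14.1 kb for members and 17.4 kb for protein-coding genes. The excess of members over all protein-coding genes is a description of a chosen list and was not tested. Groups by role below hold 3 to 11 genes each. Their counts of genes with windows stand beside the same 44.1% and are not read as results about a role.

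**Figure D1:**
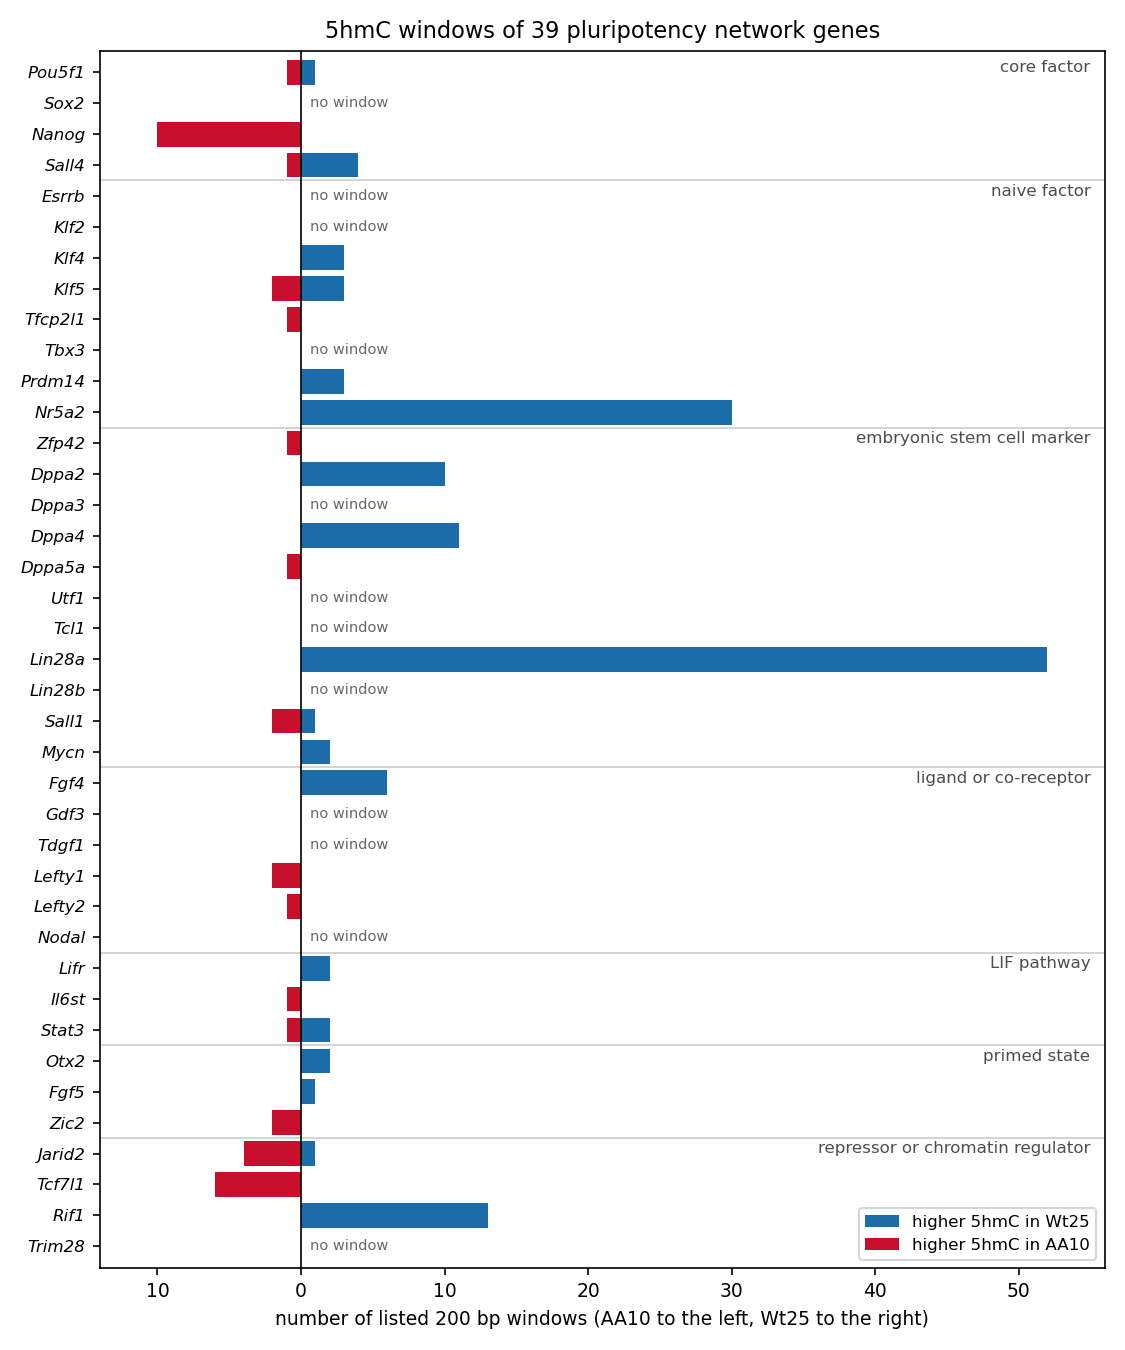
Number of listed windows (x axis) of each of the 39 genes (y axis), grouped by role, with windows higher in Wt25 to the right and windows higher in AA10 to the left. *Lin28a* (52 windows) and *Nr5a2* (30) extend farthest to the right, *Nanog* (10) and *Tcf7l1* (6) farthest to the left, and 12 genes have no window.

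**Figure D2:**
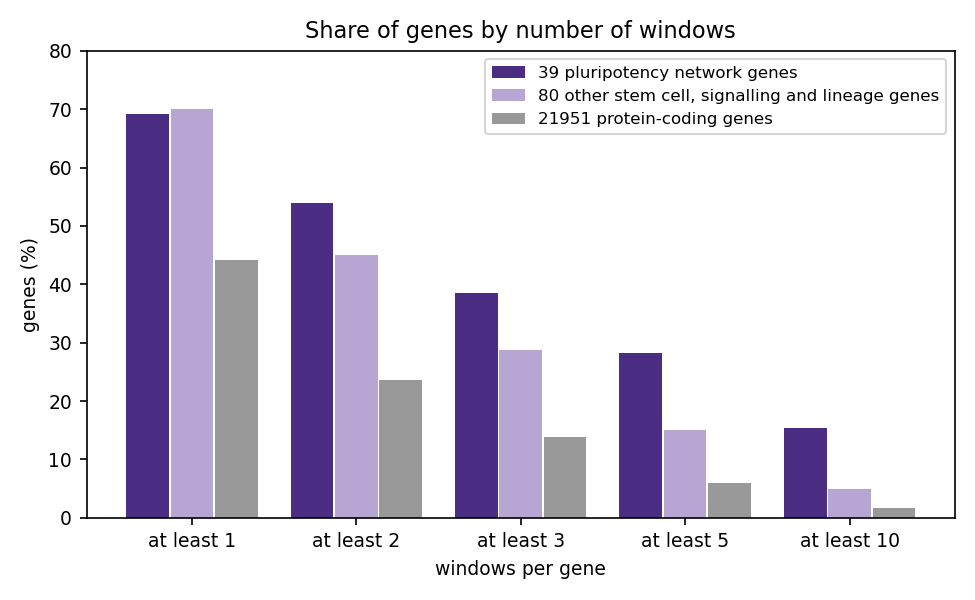
Percent of genes (y axis) with at least 1, 2, 3, 5 or 10 windows (x axis) among the 39 members, 80 other stem cell, signalling and lineage genes, and all protein-coding genes. At every number the members' bar is above that of all protein-coding genes, and at 1 window it is level with that of the 80 other genes (69.2% and 70.0%).

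Among the 4 core factors, *Nanog* had 10 windows, all with higher 5hmC in AA10. Its span (chr6:122707489-122714633) held none of them. Of the 8 upstream windows, 3 adjoining ones lay between 37.4 and 37.0 kb before the start site with 6, 4 and 7 CpGs, 2 lay 29.6 and 29.4 kb before it with 1 and 3 CpGs, 1 lay 13.4 kb before it with 1 CpG, and 2 lay 2.39 and 2.19 kb before it with 6 and 4 CpGs. The remaining 2 lay 25.7 and 26.7 kb after the nearest *Nanog* start site, in introns of the glucose transporter gene *Slc2a3* on the opposite strand, and are listed with *Slc2a3*. The genes *Dppa3* and *Gdf3*, which lie upstream of *Nanog* on the same chromosome, had no window under the rule. Most windows of the whole of chromosome 6 went the same way: 11.97% of its 1136 windows were higher in Wt25, against 58.4% of all windows, so the direction at *Nanog* was that of most of its chromosome. The part of the chromosome in the result was not tested.

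*Pou5f1* (chr17:35506018-35510772) had 1 window in each direction, both downstream of the gene. The window higher in AA10 lay 5.88 kb after the start site, beside the end of the gene, held 4 CpGs and was marked as repeat over its whole length. The window higher in Wt25 lay 8.68 kb after the start site, held 4 CpGs, and fell in a coding exon of the neighbouring gene *Tcf19*, with which it is listed. The zinc finger gene *Sall4* (chr2:168748332-168767943) had 4 windows higher in Wt25 and 1 higher in AA10. The AA10 window lay 16.1 kb upstream of the nearest start site with 5 CpGs. The Wt25 windows lay 56.3 and 59.9 kb upstream with 4 and 2 CpGs, and 23.7 and 28.7 kb from the start site on the other side of the gene with 10 and 4 CpGs, where they are listed with *Atp9a*. No window met the rule at *Sox2*, and the nearest, higher in Wt25, was 46.9 kb from its span.

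Of the 8 naive factors, 5 had windows, with 39 windows higher in Wt25 and 3 higher in AA10. *Nr5a2*, the nuclear receptor that can replace Oct4 in reprogramming, accounted for 30 of the 39. All were higher in Wt25 and were listed with *Nr5a2* itself. The span of the gene (chr1:136842571-136960448) held 16 of them, all intronic. By the transcript with the longest coding sequence, 9 lay in intron 8, 4 in intron 6, 2 in intron 3 and 1 in intron 7. One window lay 1.85 kb upstream of the start site with 1 CpG, another 2.06 kb after an internal start site with 8 CpGs, the highest number at this gene. A further 12 upstream windows lay 24.3 to 414 kb before the gene, and 1 lay downstream. Chromosome 1 as a whole held more AA10 windows, with 42.9% of 1293 windows higher in Wt25. *Nr5a2* was thus opposite to most of its chromosome, and 0.278% of protein-coding genes had at least as many windows.

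The Klf genes encode zinc finger factors that act in part redundantly in naive cells. *Klf4* (chr4:55527143-55532466) had 3 windows, all higher in Wt25: 2 adjoining ones 1.64 and 1.84 kb upstream of the start site with 8 and 4 CpGs, and 1 beyond the end of the gene, 7.77 kb after the start site, with 2 CpGs. *Klf5* (chr14:99298691-99315036) had 3 windows higher in Wt25 and 2 higher in AA10, none inside the gene. Its AA10 windows lay 31.99 kb upstream and 217 kb downstream of the nearest start site with 3 CpGs each. Its Wt25 windows lay 25.0 kb upstream with 1 CpG, and 31.3 and 124 kb downstream with 4 and 3 CpGs. *Klf2* had no window within 42.2 kb of its span.

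*Prdm14*, which encodes a repressor of primed-state genes, had 3 windows higher in Wt25, all upstream and all within the neighbouring gene *Ncoa2*: 14.9, 26.1 and 90.3 kb from the start site with 3, 1 and 2 CpGs. *Tfcp2l1*, a factor downstream of LIF and Stat3, had 1 window higher in AA10, 31.8 kb upstream in an intron of *Clasp1*. The nuclear receptor gene *Esrrb*, with a span of 161 kb the longest of the members without windows, and the T-box gene *Tbx3* had none, and their nearest windows lay 171 and 271 kb away.

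The ESC markers held 76 gene-window pairs higher in Wt25 and 4 higher in AA10 over 7 of 11 genes. *Lin28a*, an RNA-binding protein that blocks maturation of let-7 microRNAs, had 52 windows, the most of any member, all higher in Wt25. They were part of 1 dense run, that is 20 or more windows in a row with the same sign and no gap above 10 kb. The run held 68 windows over 99.8 kb (chr4:133984003-134083800) and crossed *Dhdds*, *Lin28a*, *Zfp683*, *Crybg2* and *Cd52*. Of the 52, 12 lay inside *Lin28a* (chr4:134003330-134018841), 24 beyond its end, in or just upstream of *Dhdds*, and 16 upstream. Inside the gene 10 lay in intron 2, 1 in intron 1 and 1 in the UTR of exon 4. The window nearest to the start site lay 0.540 kb after it, in intron 1, held 10 CpGs and also covered an exon of the overlapping non-coding gene *Gm13061*. The window with most CpGs of all members, 20, lay 17.9 kb after the *Lin28a* start site at the promoter of *Dhdds*. Listed genes were divided nearly evenly, with 26 windows listed with *Lin28a*, 25 with *Dhdds* and 1 with *Hmgn2*. Windows took up 15.5% of the 200 bp bins of the *Lin28a* span and 18.01% with the flanks, or 90.1 windows per 100 kb against 0.783 over the genome. The UTR window matched elsewhere: 0.599% of its 32-base stretches occurred once in the genome and their median was 2 copies. *Lin28b*, a paralog that also blocks let-7, had no window within 244 kb.

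*Dppa2* and *Dppa4*, neighbouring genes whose products bind as a pair to CpG-rich promoters, shared 6 windows and had 15 between them, all higher in Wt25. The *Dppa4* span (chr16:48283733-48294237) held 3 and the *Dppa2* span (chr16:48303908-48319723) held 4, all intronic. The window nearest to a start site was 0.624 kb after an internal *Dppa2* start site with 4 CpGs, and that of *Dppa4* 1.11 kb after its start with 2 CpGs. A further 5 lay 3.03 to 25.4 kb upstream of *Dppa4* with 2 or 3 CpGs each, and 3 lay 28.6 to 57.0 kb after the start of the *Dppa2* span. Many of these windows held repeated sequence: 58.4% of the bases at *Dppa4* and 44.8% at *Dppa2* were marked as repeat, against 31.9% over all windows. None of the 15 was in a dense run.

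Of the other 8 ESC markers, 4 had 1 to 3 windows and 4 had none. *Sall1* had 2 windows higher in AA10, 15.1 and 123 kb upstream with 2 and 3 CpGs, and 1 higher in Wt25, 609 kb upstream with 3 CpGs, the farthest of all. *Mycn* had 2 windows higher in Wt25, 45.8 kb upstream and 93.5 kb downstream. *Zfp42*, also known as Rex1, had 1 window higher in AA10, 23.9 kb upstream, and *Dppa5a* had 1 window higher in AA10, 4.48 kb after its start and beyond its end. Those without were *Dppa3*, *Utf1*, *Tcl1* and *Lin28b*.

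**Figure D3:**
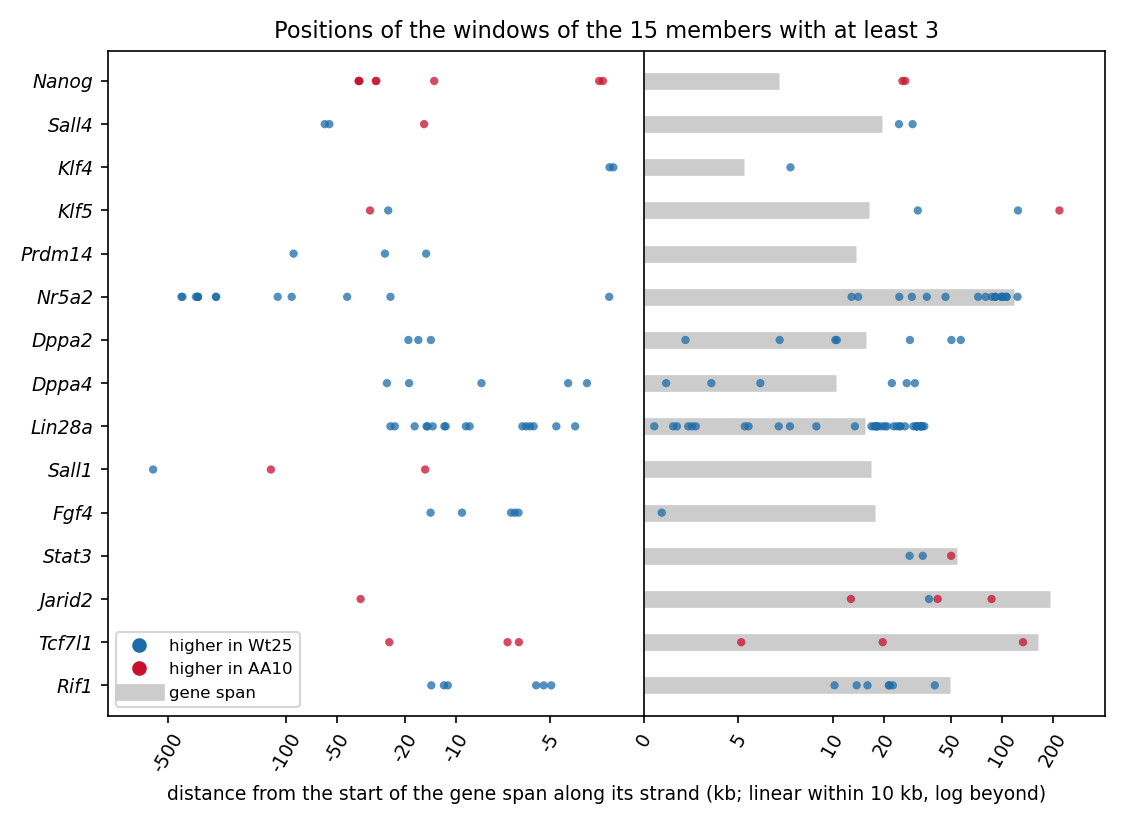
Distance of each window from the start of the gene span along its strand (x axis, kb, linear within 10 kb and logarithmic beyond) for the 15 members with at least 3 windows (y axis), with the gene span in grey. *Nr5a2*, *Rif1*, *Lin28a*, *Dppa2* and *Dppa4* have Wt25 windows both before and inside the gene, *Nanog* has AA10 windows on both sides and none inside, and few windows of any gene lie near 0.

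Among ligands and co-receptors, *Lefty1* and *Lefty2*, inhibitors of Nodal signalling that lie side by side on chromosome 1, had AA10 windows only. *Lefty1* (chr1:180935022-180938400) had 1 window 1.72 kb upstream with 3 CpGs and 1 window 21.9 kb after its start, in an intron of *Tmem63a*, also with 3 CpGs. *Lefty2* (chr1:180893108-180899103) had 1 window 2.81 kb upstream with 5 CpGs. *Fgf4*, the growth factor that starts exit from the naive state, had 6 windows higher in Wt25, all of them listed with the adjacent gene *Fgf3* and with 1 to 6 CpGs. They rest on the annotation: the GENCODE span of *Fgf4* is 17.9 kb and that of RefSeq 3.86 kb, and with the RefSeq span 1 window was left. They lay 13.1 to 28.1 kb upstream of the start site of the basic transcript. Relative to the GENCODE span, 5 lay 6.67 to 14.1 kb before its start and 1 lay inside it, 0.934 kb after its start. Of the 5, 1 fell in a coding exon of *Fgf3*. *Gdf3*, *Tdgf1* and *Nodal* had no window.

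All 3 genes of the LIF pathway had windows. *Stat3* (chr11:100885098-100939540) had 3, all inside the gene. Those in introns 2 and 6, with 3 and 6 CpGs, were higher in Wt25. The third, in coding exon 23 near the end of the gene with 4 CpGs, was higher in AA10 and is listed with the neighbour *Stat5a*. The receptor gene *Lifr* had 2 windows higher in Wt25, 19.1 and 40.7 kb upstream of the start of its span with 6 and 1 CpGs, and *Il6st* had 1 higher in AA10, 45.6 kb upstream. The *Il6st* window was counted only through the listed gene. All 3 primed-state genes had windows as well. Under the same rule 44.1% of protein-coding genes had a window, and 3 of 3 genes is not read as a result about either group. *Otx2* (chr14:48657677-48673819) had 2 higher in Wt25, 1 in intron 3, 1.17 kb after an internal start site with 5 CpGs, and 1 beyond its end, 97.0 kb from the nearest start site, with 3 CpGs. *Fgf5* (chr5:98254184-98277030) had 1 higher in Wt25 in intron 1, 1.69 kb after the nearest start site with 6 CpGs. *Zic2* had 2 higher in AA10, 6.47 and 6.87 kb after its start and beyond its end, with 1 and 9 CpGs, both listed with *Pcca*.

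The repressors and chromatin regulators divided by gene. *Rif1*, which controls replication timing and silencing, had 13 windows, all higher in Wt25 and all listed with *Rif1*. Its span (chr2:52072832-52122383) held 7, of which 6 were in introns 9 to 17 and 1, with 3 CpGs, in coding exon 30. The other 6 lay 4.93 to 13.9 kb upstream. None held more than 4 CpGs, and their mean of 2.15 was below that of all windows, 3.21. *Tcf7l1* (chr6:72626378-72789254) had 6 windows, all higher in AA10: 3 in intron 3 with 10, 5 and 2 CpGs, and 3 upstream at 6.65, 7.25 and 24.6 kb with 3, 7 and 5 CpGs. Like *Nanog* it lies on chromosome 6. *Jarid2*, a Polycomb cofactor (chr13:44729474-44921643), had 4 windows higher in AA10 and 1 higher in Wt25. Of these, 4 lay in intron 2, with 2, 3 and 3 CpGs in the AA10 windows and 3 CpGs in the Wt25 window, and 1 AA10 window lay 36.4 kb upstream of the span with 4 CpGs. The Wt25 window at *Jarid2* was marked as repeat throughout and 26.3% of its 32-base stretches occurred once. *Trim28* had no window within 31.7 kb.

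**Figure D4:**
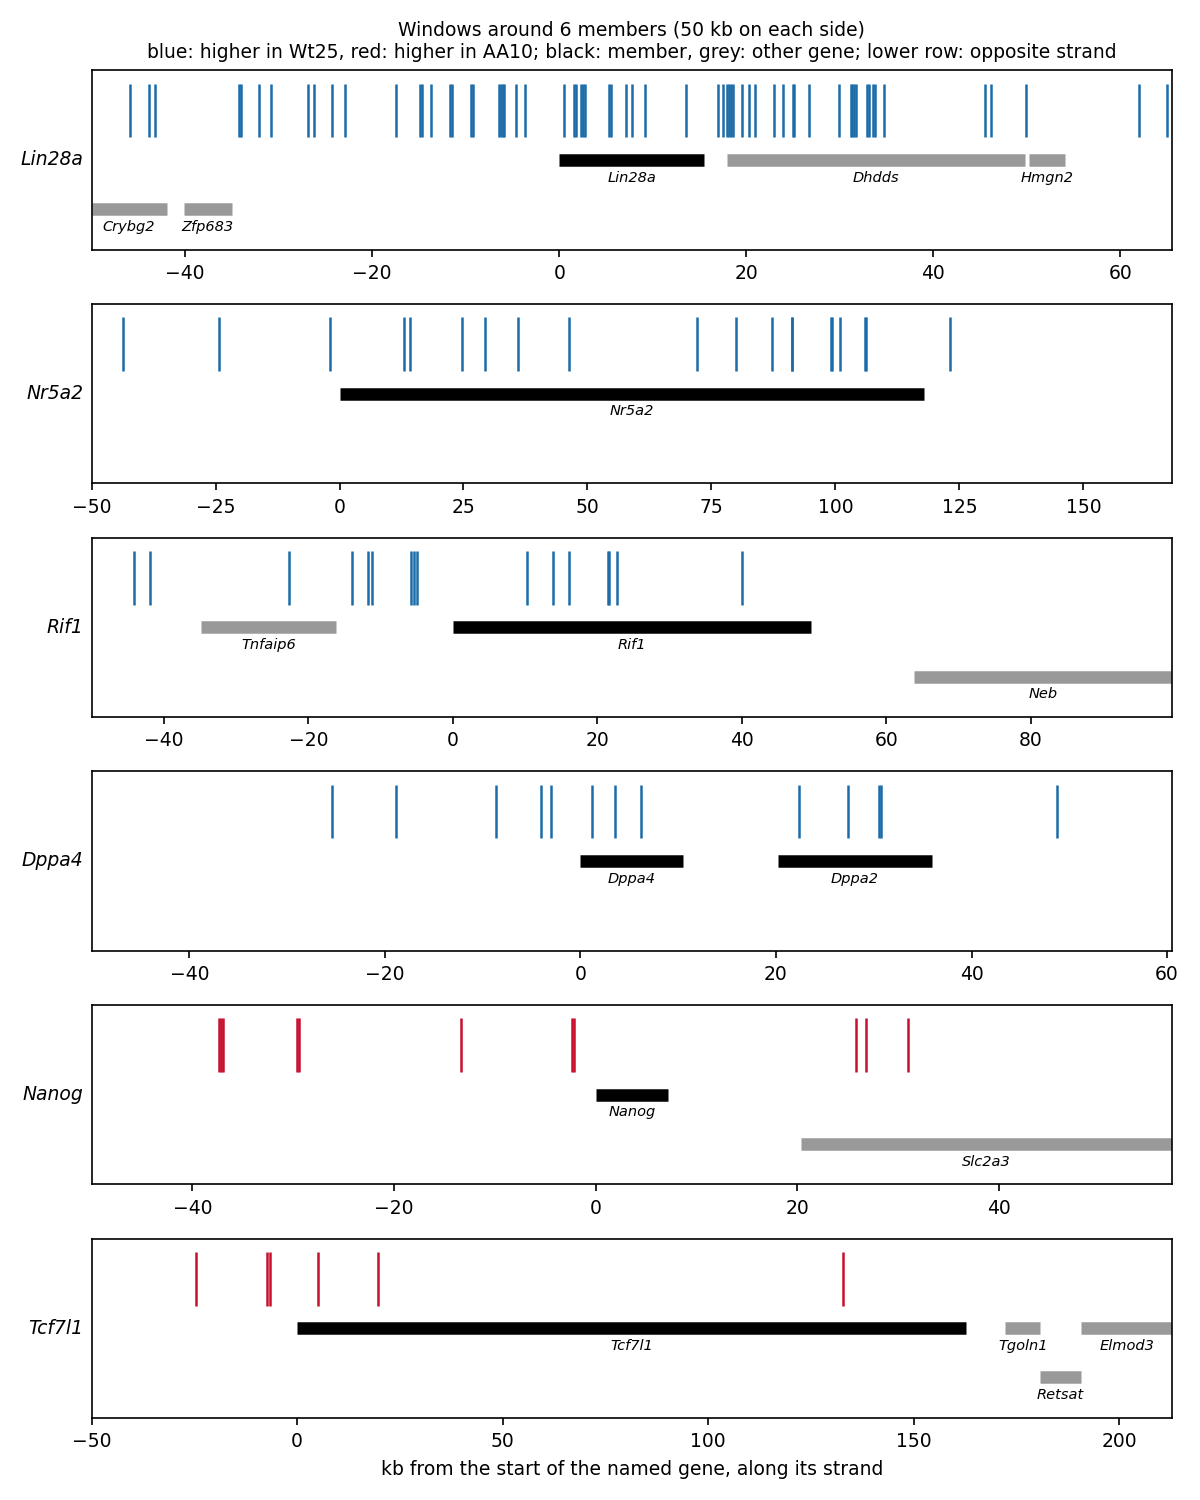
Windows (vertical lines, blue for higher in Wt25 and red for higher in AA10) and gene spans (bars, black for members and grey for other protein-coding genes, lower row for the opposite strand) around 6 members, with distance from the start of the named gene in kb on the x axis. The lines run past *Lin28a* into *Dhdds* on one side and toward *Zfp683* and *Crybg2* on the other, whereas at *Nr5a2* they lie along the gene, and each panel holds 1 direction only.

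The 12 members without a window were *Sox2* (span 2.06 kb), *Esrrb* (161 kb), *Klf2* (2.62 kb), *Tbx3* (14.1 kb), *Dppa3* (3.86 kb), *Utf1* (1.32 kb), *Tcl1* (6.04 kb), *Lin28b* (110 kb), *Gdf3* (4.69 kb), *Tdgf1* (6.56 kb), *Nodal* (7.37 kb) and *Trim28* (31.9 kb). Their median span was 6.30 kb, against 16.1 kb for the members with windows. Over all protein-coding genes the medians were 12.8 kb without and 25.3 kb with windows, so the shorter span of genes without windows was shared by both groups. The nearest window was higher in Wt25 for *Sox2*, *Klf2*, *Esrrb*, *Utf1*, *Tcl1*, *Lin28b* and *Nodal*, and higher in AA10 for *Tbx3*, *Dppa3*, *Gdf3*, *Tdgf1* and *Trim28*. *Utf1* was the most isolated, with its nearest window 493 kb away. Just inside the limit of 20 kb, *Lifr* had its nearest window 19.01 kb from the span. Just outside it, *Zfp42* had its nearest window at 23.8 kb and *Tfcp2l1* at 31.7 kb, both counted through the listed gene, and *Trim28* at 31.7 kb, which was not counted. A window absent from the lists was not called or was filtered, which does not show that the lines had equal 5hmC there.

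Of the 177 windows, 141 (79.7%, 95% Wilson interval 73.1 to 84.9) were higher in Wt25, against 58.4% of all windows. The interval covers the number of windows only and is too narrow, because neighbouring windows are not independent. The 6 members with at least 10 windows, *Lin28a*, *Nr5a2*, *Rif1*, *Dppa4*, *Dppa2* and *Nanog*, held 120 of the 177 (67.8%). Of the 57 windows at the other members, 31 (54.4%) were higher in Wt25, a share below that of all windows. Counted by gene, 15 members had more Wt25 windows, 11 had more AA10 windows and *Pou5f1* had 1 of each. The share of genes with a single direction was close to that elsewhere: of 21 members with at least 2 windows, 15 (71.4%) had a single direction, against 70.9% of 5197 protein-coding genes. Chromosome moved with direction. The share of windows higher in Wt25 was 73.9% on the chromosome of *Rif1*, 67.8% on that of *Dppa2* and *Dppa4*, and 66.3% on that of *Lin28a*. Among members with a single direction, *Prdm14*, *Nr5a2*, *Mycn*, *Zfp42*, *Dppa5a* and *Zic2* went against the majority of their chromosome. The others went with it. On chromosome 6 all 16 member windows were higher in AA10, and without that chromosome 87.6% of member windows and 61.1% of all windows were higher in Wt25. Dense runs moved with it too: 36.9% of the members' Wt25 windows, all at *Lin28a*, and none of their AA10 windows lay in such runs, against 11.3% and 20.4% over all windows. Without dense runs 71.2% of the members' windows were higher in Wt25, and no share over all windows without dense runs stands beside this. The part of either in the direction was not tested.

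The median distance of member windows to a start site of their gene was 21.7 kb, against 19.1 kb for the 18602 windows that the same rule gave to any protein-coding gene. Within 2 kb of a start site lay 11 member windows (6.21%, against 9.75%), 10 higher in Wt25 and 1, at *Lefty1*, higher in AA10, and the closest midpoint was 0.540 kb away. These measures are unlike: member windows were measured to start sites of members only, the others to those of any protein-coding gene they were assigned to. Windows at the *Dhdds* promoter thus counted as far from *Lin28a*, and the lower share and longer median are not read as a result about the members. No member had a window in its own promoter, taken as the 1 kb before a start site and the first 100 bp after it. Of all protein-coding genes 2.59% had one, so that a count of 0 among 39 genes is near the background and is not read as a result about the members. With the starts of gene spans added as start sites, 12 windows lay within 2 kb and the median distance was 20.3 kb. The gene spans held 55 windows (31.1%), 81 lay only in the flanks and 41 were counted only through the listed gene. Inside spans lay 48 of the 141 Wt25 windows (34.04%) and 7 of the 36 AA10 windows (19.4%). Of the 48, 16 were at *Nr5a2* and 12 at *Lin28a*. No share over all windows of each direction stands beside these, and the difference was not tested. By the feature at the midpoint, 43.5% were intronic and 47.5% intergenic, against 46.2% and 39.1% of all windows. Coding exons held 4 member windows (2.26%, against 2.90%), and of these only those at *Stat3* and *Rif1* were in a member's own exon. All 7 windows in promoters (3.95%, against 5.01%) were at promoters of other genes.

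Member windows were close to all windows in CpG number and repeat share. They held a mean of 3.35 ± 2.30 CpGs (SD over 177 windows), against 3.21 ± 2.46 over all windows and 1.64 in an average stretch of the same length of the genome. The mean was 3.26 ± 2.33 in the 141 Wt25 windows and 3.69 ± 2.15 in the 36 AA10 windows, against 3.25 and 3.16 over all windows of each direction. Every member window held at least 1 CpG, as did all but 84 of the 20726 windows. Repeat-marked bases made up 31.5% of their sequence, against 31.9%. In 70.1% of member windows every 32-base stretch occurred once in the genome, against 62.3% of all windows. In 11 member windows (6.21%, against 13.8% of all windows) under 50% of the stretches did. The recognition site of MspI (CCGG), an enzyme used to measure 5hmC after glucosylation, was present in 40 member windows (22.6%, against 21.7%).

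Short motifs of the factors encoded by members were searched on both strands of the windows. The octamer ATGCAAAT, the site of Oct4, was found in 3 member windows (1.69%, against 1.53% of all windows). All 3 were higher in Wt25, as were 79.7% of all member windows. Over all windows the octamer was in 1.34% of those higher in Wt25 and 1.80% of those higher in AA10. These 3 are shown on the plus strand with the octamer or its reverse complement in capitals.
Nr5a2, higher in Wt25, chr1:136854203-136854400: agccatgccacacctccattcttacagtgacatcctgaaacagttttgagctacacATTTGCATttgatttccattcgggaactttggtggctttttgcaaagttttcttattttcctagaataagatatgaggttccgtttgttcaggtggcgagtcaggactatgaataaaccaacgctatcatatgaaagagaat
Lin28a, higher in Wt25, chr4:134016403-134016600: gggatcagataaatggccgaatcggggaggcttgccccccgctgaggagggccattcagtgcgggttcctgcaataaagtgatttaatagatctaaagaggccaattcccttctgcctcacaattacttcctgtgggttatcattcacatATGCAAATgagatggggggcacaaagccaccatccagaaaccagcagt
Mycn, higher in Wt25, chr12:12847003-12847200: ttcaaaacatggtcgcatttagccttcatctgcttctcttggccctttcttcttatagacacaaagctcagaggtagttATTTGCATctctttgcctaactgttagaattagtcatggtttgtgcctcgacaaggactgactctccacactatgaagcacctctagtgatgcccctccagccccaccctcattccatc
The *Nr5a2* window lay in intron 8 and also held the STAT site TTCNNNGAA. The *Lin28a* window lay in intron 2, 2.34 kb after the start site. The Sox site CATTGTT was found in 4 member windows (2.26%, against 3.16%), the site AAGGTCA of Esrrb and Nr5a2 in 6 (3.39%, against 4.19%), the Klf site GGGNGTGG in 16 (9.04%, against 9.53%), and the STAT site in 7 (3.95%, against 6.21%). The Sox and STAT matches were likewise all in Wt25 windows. With 79.7% of member windows higher in Wt25, such small counts are not read as a difference by direction. Over all windows the Sox site was in 3.10% of those higher in Wt25 and 3.23% of those higher in AA10, and the STAT site in 5.89% and 6.66%. The TCF site CTTTGAT was found in 10 (5.65%, against 3.44%), the E-box CACGTG, which Mycn binds, in 12 (6.78%, against 3.79%), the bicoid site TAATCC of Otx2 in 26 (14.7%, against 9.37%), and the Zic site CAGCAGG in 10 (5.65%, against 6.24%). The Prdm14 site GGTCTCTAA was in none of the member windows and in 0.130% of all. A match describes letters in a window and does not show binding, and the shares were not tested.

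Outside the 39 members, 80 other genes of stem cell identity, of LIF, FGF and Wnt signalling and of early lineages were counted in the same way. Of these, 56 (70.0%) had a window, 41 (51.3%) a window higher in Wt25 and 29 (36.3%) a window higher in AA10, shares close to those of the members. At least 10 windows were found at 5.00%, against 15.4% of the members. Of their 203 gene-window pairs, 145 (71.4%) were higher in Wt25, and 66.1% without *Pim1*, a kinase gene induced by Stat3, which had 32 windows, all higher in Wt25 and none inside the gene.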

How the data were processed

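Per the labels, 5hmC-DIP-seq was done on 3 libraries of each line, and what was used here is where in the genome the lines differed. To get there, the authors kept STAR alignments to GRCm38 that were unique, dropped PCR duplicates (Picard), called 200 bp bins that differed between Wt25 and AA10 with MEDIPS, filtered bins on IgG-DIP peaks and simple repeats, and annotated them with HOMER. Versions are not given in the sources used here. The authors' deposited lists hold chromosome, start, end and gene identifier.

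Windows were assigned to genes of GENCODE vM21 by span, by distance of at most 20 kb, or by deposited identifier. Start sites were those of its basic transcripts. Features were taken at the midpoint (promoter, termination site, coding exon, UTR, non-coding exon, intron, intergenic), and CpGs, motifs and 32-mer copies from GRCm38.p6. The members, their roles, the 80 further genes and the motifs were chosen with earlier results of these data known, so all counts are descriptions and no test was made. Members were named with their counts, those with at least 3 windows, both directions, or a window within 2 kb of a start site or in a coding exon with each window. Positions are 1-based. Intervals cover counting error only, and the depth per library is not in the lists. The functions were tested on small made-up data (pandas 2.3.3 and numpy 2.4.6 under Python 3.11.15). Alternatives were other flanks, RefSeq spans, identifier only, joined bins, and leaving out chromosome 6 or *Lin28a*. The input, H3K27ac, MNase and mRNA libraries were not analysed here.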

Additional observations from a re-analysis of the deposited data

How the results depend on the processing

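All 10 alternatives were computed for 7 values, of which 2, position without the listed gene and leaving out dense runs, were chosen after seeing the data. The share higher in Wt25, the only one of these values with a direction, kept Wt25 in the lead. Wt25 also led among all windows, with 58.4%, 61.1% without chromosome 6 and 59.4% of joined bins. The alternatives reuse most of the same windows, so the kept lead does not show an excess of the members. Shares over all windows are not given for the other alternatives. The shares over all protein-coding genes were not among these values. The share of member windows higher in Wt25 was 79.7%, and it moved to 87.6% without chromosome 6, to 71.2% without *Lin28a* and to the same 71.2% without dense runs, which held the same 52 windows. The share inside gene spans, 31.1%, moved to 39.3% with no flank and to 40.4% by position alone, both of which drop windows outside the genes by construction. Of the 60 alternative values of counts and shares, 55 stayed within 1.5 times the reported count or within the counting interval of the reported share. The mean CpG number, 3.35, ranged from 3.21 to 3.51. The number of windows ranged from 125 to 214 and that of members with windows from 23 to 31. A flank of 50 kb added *Sox2*, *Klf2*, *Dppa3* and *Trim28*. A stricter threshold, the leaving out of a replicate and a paired comparison could not be run on lists that pool the libraries. No paired analysis was possible because the values come from no test.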

Other observations

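Besides the members, 23 of the 80 other stem cell, signalling and lineage genes (28.75%) had at least 3 windows. The shares were 38.5% of members and 13.9% of protein-coding genes, and the difference was not tested. The primed-state and lineage genes *Dnmt3a* and *Sox1* had 10 windows each, *Cdh2* had 7 and *Fgf8* had 6, all higher in Wt25. Of the signalling genes, the FGF target *Etv4* had 7 and *Spry4* had 4, all higher in Wt25, whereas the LIF target *Socs3* had 3 and the Wnt regulator *Apc* had 5, all higher in AA10. *Fgfr1* had 3 windows higher in Wt25 and 4 higher in AA10. *Cdh1*, the cadherin of epithelial and naive cells, had 5, all inside the gene and higher in Wt25, and *Tfap2c* and *Smad3* had 3 each, also higher in Wt25. *Mybl2* had 1 higher in Wt25 and 4 higher in AA10. The values of *Fgfr2*, 16 and 7, rest on a GENCODE span of 2961 kb. The others with at least 3 windows, *Ncoa3*, *Sall3*, *Spry2*, *Etv5*, *Axin2*, *Lef1*, *Foxa2* and *Gata3*, had both directions, with 3 to 5 windows each.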
